A study of Mus musculus with 2 samples.

Results

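The 7 microRNA (miRNA) genes Mir322, Mir503, Mir351, Mir542, Mir450-2, Mir450-1 and Mir450b form 1 cluster on the mouse X chromosome, and their reads were followed in gastrocnemius, a calf muscle. The members were taken by gene symbol in the GENCODE M21 annotation, and all 7 were found among the 2202 miRNA genes of the count files. The samples were 2 libraries of small RNA from a single group: gastrocnemius of female B6CASTF1/J mice, an F1 hybrid of a C57BL/6 and a CAST parent strain, at 18 to 20 months of age, with no treatment named in the labels. The labels number the libraries as biological replicates 1 and 2, with separate biosample entries, but give both the same donor entry. Whether 2 animals were used is not given, so the spread between the libraries may be technical. There is no second condition, no younger animal and no differentiating culture here, so induction of the cluster, for which it is known in myoblasts, was not tested.

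MiRNAs are cut from hairpin precursors, and bases 2 to 8 of the mature strand, the seed, pair with target messenger RNAs and lower their output. Mir322, the mouse counterpart of human MIR424, and Mir503 are known for rising when myoblasts leave the cell cycle, where they repress the phosphatase Cdc25a. Clustered miRNAs on the same strand are often cut from a common primary transcript, and then differ in abundance through processing and turnover. Mir351 shares its seed with the Mir125 family, and miR-542-3p is known to repress survivin.

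The members fell into several seed groups. RefSeq (build GRCm38.p6) gave mature sequences for all 7 members, 13 distinct ones in all. The 5p strands, with the seed in capitals, are shown for the 5 genes with a 5p strand of their own and for the pair that shares one, since they separate the Mir322, Mir351 and Mir450 branches:
miR-322-5p: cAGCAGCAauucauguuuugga
miR-503-5p: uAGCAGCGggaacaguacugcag
miR-351-5p: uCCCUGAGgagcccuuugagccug
miR-542-5p: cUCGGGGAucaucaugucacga
miR-450a-5p, encoded by both Mir450-2 and Mir450-1: uUUUGCGAuguguuccuaauau
miR-450b-5p: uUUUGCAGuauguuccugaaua

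Counted from 1 at the 5′ end, miR-322-5p and miR-503-5p differ inside the seed by the single substitution A8G, and they match at 11 of the 22 positions compared. The miR-322-5p seed is that of the Mir15 and Mir16 family, whose members are known regulators of the cell cycle. A pair of those relatives is shown for comparison, again with the seed in capitals:
miR-16-5p: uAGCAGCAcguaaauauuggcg
miR-15a-5p: uAGCAGCAcauaaugguuugug

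MiR-322-5p matched miR-15a-5p at 15 of 22 positions and miR-16-5p at 12 of 22. The seed of miR-351-5p is that of miR-125a-5p (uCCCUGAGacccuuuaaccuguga), but only 10 of 24 positions matched over the whole strand. The 450a and 450b 5p strands differ in the seed by G7A and A8G. Of the 3p strands, miR-542-3p (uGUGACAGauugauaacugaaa) had a seed held by no other mature mouse sequence in the table. The same was true of the 3p strands of Mir322, Mir503, Mir351 and Mir450-2. The 3p strands of Mir450-1 (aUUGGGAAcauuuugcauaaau) and Mir450b (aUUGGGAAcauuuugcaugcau) shared their seed with each other, and outside the cluster with miR-6352 alone. The counts are per gene, so 5p and 3p strands cannot be told apart in the values that follow.

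All 7 hairpins lie on the minus strand of chromosome X in 6353 bases of mm10, from 53047997 to 53054349. None overlaps another annotated gene on either strand. Mir322 (ENSMUSG00000065418.1, 53054255 to 53054349) comes first in the direction of transcription. It is followed by Mir503 (ENSMUSG00000076122.1, 53053984 to 53054054) and Mir351 (ENSMUSG00000065503.1, 53053255 to 53053353). Mir542 (ENSMUSG00000076140.1, 53049403 to 53049487) stands apart by 3767 bases from Mir351, and the long noncoding RNA gene Gm28730 lies in that gap. The Mir450 genes close the cluster: Mir450-2 (ENSMUSG00000076399.1, 53048299 to 53048367), Mir450-1 (ENSMUSG00000065486.1, 53048154 to 53048244) and Mir450b (ENSMUSG00000076050.1, 53047997 to 53048078). The noncoding transcript C430049B03Rik, on the same strand, ends 696 bases upstream of Mir322.

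Sense counts over all miRNA genes came to 865419 in replicate 1 and 2177048 in replicate 2, and CPM values are counts scaled to a library total of 1000000. Multimapping reads, 80.7% and 71.0% of all reads, enter no gene count. The striated muscle marker list held 4.07% and 10.4% of gene counts and the smooth muscle list 7.54% and 3.799%. Of the striated muscle counts Mir206 held 34953 of 35260 and 224741 of 225327. Mir1a-1 and Mir1a-2 read lower in replicate 2 by CPM, and Mir133a-1, Mir133a-2 and Mir133b higher. The slow fibre list held 0.0181% and 0.0956%, the fibroblast list 0.0633% and 0.138%, and the epithelial list 0.00139% and 0.0102%. Of the fibroblast counts Mir214 held 488 of 548 and 2906 of 3010, while Mir199a-1, Mir199a-2 and Mir199b read lower in replicate 2 by CPM. The sums of the endothelial (4.73% and 5.30%), leukocyte (0.362% and 0.408%) and erythroid (0.0230% and 0.0316%) lists differed less. Within the leukocyte list Mir142 (246 and 96.0 CPM) and Mir223 (278 and 123 CPM) were lower in replicate 2. Mir155 (1432 and 2120 CPM) was higher there, and Mir150 (1663 and 1746 CPM) slightly so. Every list had counts in both libraries, though Mir199a-1 of the fibroblast list was at 0 in replicate 2 and Mir141 of the epithelial list at 0 in replicate 1. Their part in the values of the cluster was not tested.

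Mir322 dominated the cluster, and every member had reads in both libraries. The 7 genes together held 2765 counts in replicate 1 and 7421 in replicate 2. The share of gene counts was 0.319% in replicate 1 (95% interval by the exact Clopper-Pearson method 0.308 to 0.332). In replicate 2 it was 0.341% (0.333 to 0.349), which gives a mean of 0.330% ± 0.0151 (SD, n = 2). Of these counts 90.7% ± 2.79 (SD, n = 2) belonged to Mir322. Since 2 members are lower bounds for a reason given with them, the cluster's counts are a lower bound too. The share of Mir322 within the cluster is then an upper bound. Multimapping reads are also missing from the total of gene counts, so the cluster's share of that total is not bounded in either direction. The 3 Mir450 genes together had 23 and 56 counts.

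**Figure D1:**
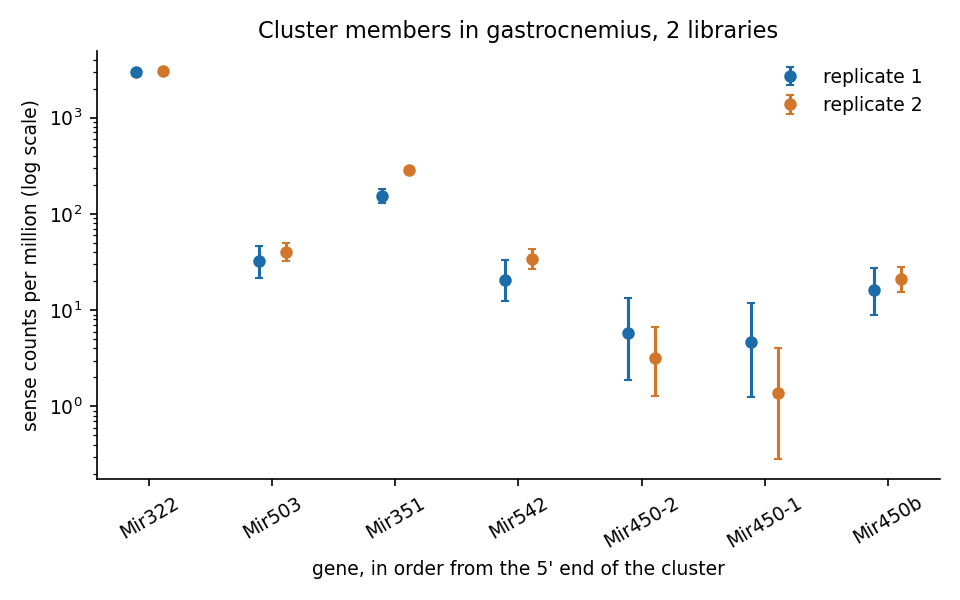
Sense CPM on a log scale for the 7 genes, ordered along the minus strand from Mir322, in replicate 1 (blue) and replicate 2 (orange); bars are exact Poisson 95% intervals of the count. Mir322 stands at 2962 and 3025 CPM, Mir351 is next at 154 and 283 CPM, and Mir450-2 and Mir450-1 lie lowest.

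Mir322, the cell cycle regulator that shares the Mir15 and Mir16 seed, had 2563 counts in replicate 1, or 2962 CPM (exact Poisson 95% interval 2848 to 3078.5). In replicate 2 it had 6586 counts, or 3025 CPM (2953 to 3099). Its mean of 2993 ± 44.99 CPM (SD, n = 2) put it at rank 39 of all miRNA genes by uniquely counted reads. Genes with a second copy could rank higher, since their multimapping reads are not counted. Scaled by library totals, the intervals of the libraries overlap and neither library stands out for this gene. This depends on the scaling, as given with the ratios below.

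Mir503, which lies 200 bases downstream of Mir322 and carries a near-identical seed, was far scarcer. It had 28 counts, or 32.4 CPM (21.5 to 46.8), in replicate 1 and 88 counts, or 40.4 CPM (32.4 to 49.8), in replicate 2. The mean was 36.4 ± 5.70 CPM (SD, n = 2), rank 196. Mir322 outnumbered it by 91.5 to 1 in replicate 1 (exact conditional interval 63.2 to 138) and by 74.8 to 1 in replicate 2 (60.7 to 93.4). These intervals overlap, so a different balance of Mir322 and Mir503 between the libraries was not detectable at this depth.

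Mir351, the member with the Mir125 seed, was the second most abundant by uniquely counted reads. It had 133 counts, or 154 CPM (129 to 182), in replicate 1 and 617 counts, or 283 CPM (261 to 307), in replicate 2. Replicate 2 was higher and the counting intervals do not overlap, at a mean of 219 ± 91.7 CPM (SD, n = 2), rank 113. Its share of the cluster's counts was 4.81% (4.04 to 5.67) in replicate 1 and 8.31% (7.70 to 8.97) in replicate 2. Accordingly Mir322 exceeded Mir351 by 19.3 to 1 (16.2 to 23.1) in replicate 1 but by 10.7 to 1 (9.83 to 11.6) in replicate 2, a quotient that no scaling of the libraries can change.

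Mir542, the gene of the survivin-repressing strand, had 18 counts, or 20.8 CPM (12.3 to 32.9), in replicate 1 and 74 counts, or 34.0 CPM (26.7 to 42.7), in replicate 2. Its mean was 27.4 ± 9.33 CPM (SD, n = 2). Mir450b had 14 counts, or 16.2 CPM (8.84 to 27.1), and 46 counts, or 21.1 CPM (15.5 to 28.2), with a mean of 18.7 ± 3.50 CPM. For both genes the intervals of the libraries overlap.

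Mir450-2 and Mir450-1 were barely counted, and their values are lower bounds. Mir450-2 had 5 counts, or 5.78 CPM, in replicate 1 and 7 counts, or 3.22 CPM, in replicate 2. Mir450-1 had 4 counts, or 4.62 CPM, and 3 counts, or 1.38 CPM. The floor that a count of 0 would allow, 3 counts, is 3.47 CPM in replicate 1 and 1.38 CPM in replicate 2, so both genes lie near the limit of these libraries. The reason that the level is a lower bound is visible in the hairpins, in which the longest run common to both genes, 25 bases, is given in capitals:
Mir450-2: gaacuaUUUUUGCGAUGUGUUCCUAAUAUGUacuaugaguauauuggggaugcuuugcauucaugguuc
Mir450-1: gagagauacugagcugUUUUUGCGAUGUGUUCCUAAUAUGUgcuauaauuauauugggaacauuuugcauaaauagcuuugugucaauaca

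The run covers the whole 22-base miR-450a-5p. A read confined to that run matches both genes, and multimapping reads were not counted, so the counts come from reads that lie outside the run or extend past it. Mir450-1 also shares up to 18 bases of its 3p strand with Mir450b. No mature strand of the other 5 genes occurs whole in another of the 2202 annotated hairpins. The longest run that a hairpin of Mir322, Mir503, Mir351 or Mir542 shares with any other is 11 to 13 bases, against 19 for Mir450b.

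**Figure D2:**
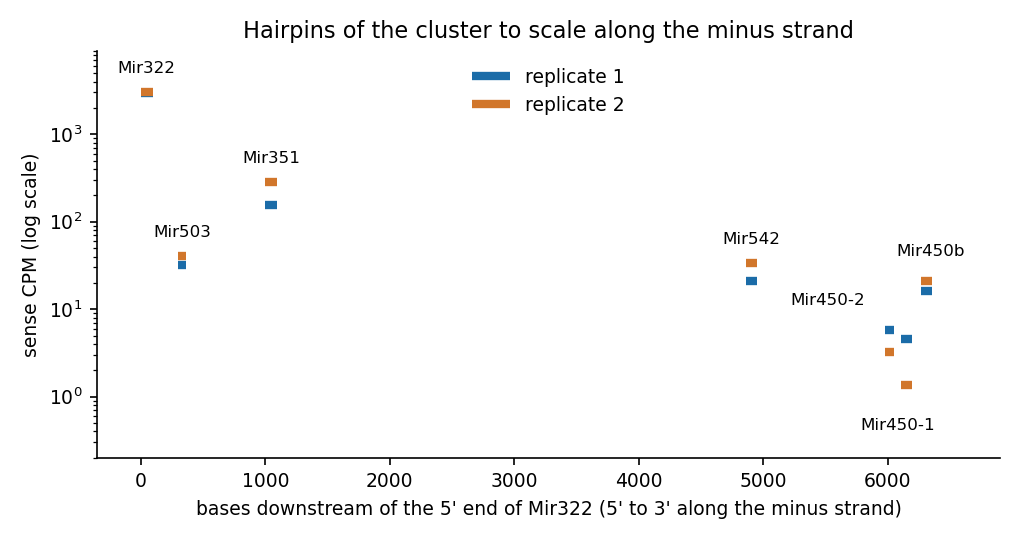
Each hairpin is drawn to scale at its distance in bases from the 5′ end of Mir322 along the minus strand, at its sense CPM (log scale) in replicate 1 (blue) and replicate 2 (orange). The highest gene, Mir322, is the first in line, Mir503 lies 295 bases on at 32.4 and 40.4 CPM, and the 3 Mir450 genes end the cluster at 5982 to 6271 bases.

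By mean CPM the order was Mir322, Mir351, Mir503, Mir542, Mir450b, Mir450-2 and Mir450-1. Dividing by hairpin length left the order as it was, from 3151 CPM per 100 bases for Mir322 to 3.30 for Mir450-1. The steps from Mir322 to Mir351 and from Mir351 to Mir503 exceeded counting error in both libraries. Mir503 and Mir542, Mir542 and Mir450b, and Mir450-2 and Mir450-1 each had overlapping counting intervals in both libraries, so their order is not settled. The step from Mir450b to Mir450-2 exceeded counting error in 1 of the 2 libraries and crosses from a uniquely counted gene to lower bounds. Distance along the cluster did not order the levels, since Mir503 between Mir322 and Mir351 was lower than both in each library.

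The libraries were compared gene by gene with the exact conditional binomial test, given the library totals. Benjamini-Hochberg adjustment ran over the 305 genes whose counts averaged 10 or more. Calling a gene required both an adjusted p under 0.05 and a difference of 2-fold or more. The test compares these 2 libraries and their counting error, not animals. Of the 7 members 5 were tested and 0 were called, while 33.8% of all tested genes were called. Mir450-2 and Mir450-1 fell short of the count minimum. At an unadjusted p under 0.05, 1 member passed by the same test, as did 68.5% of all tested genes. With edgeR TMM or DESeq2 size factors in place of totals 0 were called as well, against 32.1% and 31.8% of all tested genes. With either scaling 2 members passed at an unadjusted p under 0.05, as did 65.9% of all tested genes with TMM and 64.9% with DESeq2 size factors.

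With library totals Mir351 was the member with an adjusted p under 0.05, 1.84-fold higher in replicate 2 (exact interval 1.53 to 2.24, adjusted p = 4.65e-11 by the exact conditional binomial test), a log2 ratio of 0.88 and under the ratio threshold. The median log2 ratio of all tested genes was 0.43, with an SD of 1.255 over genes, and Mir351 lay within 1 SD of that median. The ratio was 1.52 with TMM and 1.38 with DESeq2 size factors. With library totals and no ratio threshold, Mir351 alone of the members was called, against 67.9% of all tested genes. For Mir542 the ratio was 1.63 (0.966 to 2.91, adjusted p = 0.0919 by the exact test).

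Mir322 differed little between the libraries at a ratio of 1.02 (0.976 to 1.07, adjusted p = 0.435 by the exact test). Only 5 of the 305 tested genes had a smaller absolute log2 ratio. That position depends on the scaling, because edgeR TMM lowers each log2 ratio by 0.28 and DESeq2 size factors by 0.42. Mir322 then reads -0.25 and -0.39 on the log2 scale, with adjusted p = 5.41e-13 and 7.54e-29 by the exact test, still under the ratio threshold. Set against the median of all tested genes, the log2 ratio of Mir322 differed by -0.40.

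Mir503 had a ratio of 1.25 (0.808 to 1.99, adjusted p = 0.424 by the exact test) and Mir450b 1.31 (0.706 to 2.57, adjusted p = 0.534). Their intervals reach from below 1 to about 2 or more, so neither equality nor a doubling can be read from them. The untested Mir450-2 and Mir450-1 had ratios of 0.557 (0.152 to 2.22) and 0.298 (0.0437 to 1.76). The median log2 ratio of the 5 tested members was 0.39, beside 0.43 for all tested genes, and all 5 lay within 1 SD of that median, as did 77.4% of tested genes. The summed counts of the 7 genes had a ratio of 1.07 (1.02 to 1.11) with library totals, which turned to 0.877 with TMM and 0.799 with DESeq2 size factors.

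**Figure D3:**
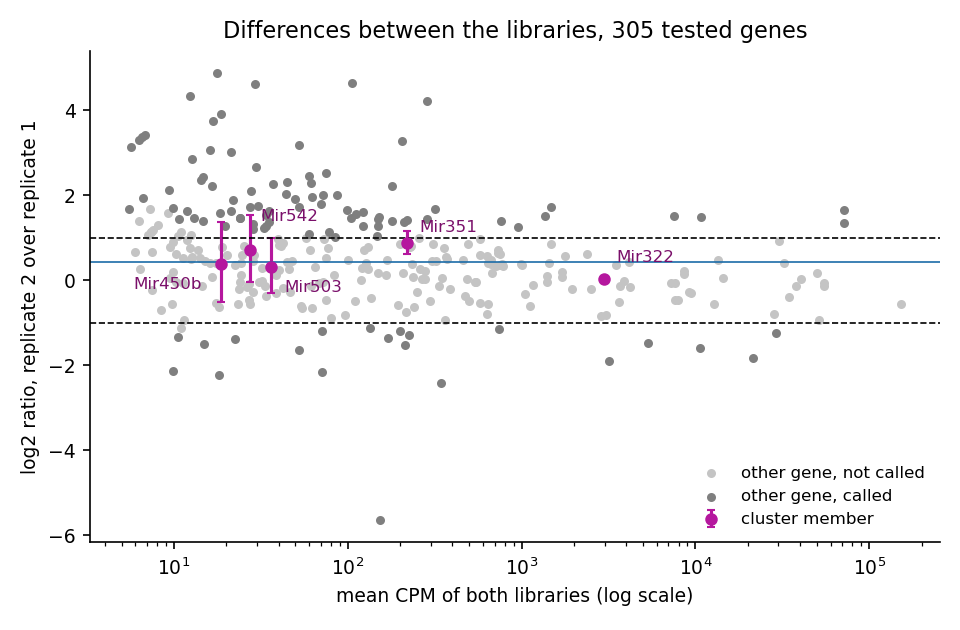
Log2 ratio of replicate 2 over replicate 1 against mean CPM (log scale) for the 305 tested genes, with called genes in dark grey, uncalled genes in light grey and the 5 tested members in magenta with exact 95% intervals; dashed lines mark a ratio of 2 either way and the blue line the median of 0.43. All 5 members lie between the dashed lines, with Mir322 at 0.03 and Mir351 highest at 0.88.

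Among genes that carry the miR-322-5p seed, Mir322 had the most uniquely counted reads in both libraries. RefSeq lists 11 genes with this seed, all of which were matched to the count files. Together they held 6024 counts (0.696% of gene counts) in replicate 1 and 17428 (0.801%) in replicate 2. Mir322 accounted for 42.5% of them in replicate 1 (41.3 to 43.8, by the same exact method) and 37.8% in replicate 2 (37.1 to 38.5), or 40.2% ± 3.36 (SD, n = 2).

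Each relative of Mir322 had a lower mean level, and some differed between the libraries. Mir15a was at 1474 ± 599 CPM and Mir195a at 1396 ± 31.1 CPM (SD, n = 2). Mir497, at 419 and 1099 CPM, was 2.62-fold higher in replicate 2 (2.34 to 2.93). Mir16-2, at 579 and 109 CPM, was 0.188 times as high in replicate 2 (0.160 to 0.220). Those 2 were called, in opposite directions, and the other 4 tested genes of the list of 8 Mir15 and Mir16 relatives were not. The call of Mir497 was lost with DESeq2 size factors (log2 ratio 0.97). Mir16-1 (386 ± 39.5 CPM) and Mir16-2 both encode miR-16-5p, so their counts are lower bounds and the share held by Mir322 is an upper bound. The ratio and call of Mir16-2 rest on its uniquely counted reads alone, so a difference in miR-16-5p cannot be read from them. The Mir15b level was 131 ± 17.2 CPM, and Mir195b, Mir6342, Mir6353 and Mir6419 had 0 counts. The mature Mir497 strand occurs in 1 other hairpin, that of Mir497b, which is annotated on the opposite strand of the same place and had 0 sense counts.

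**Figure D4:**
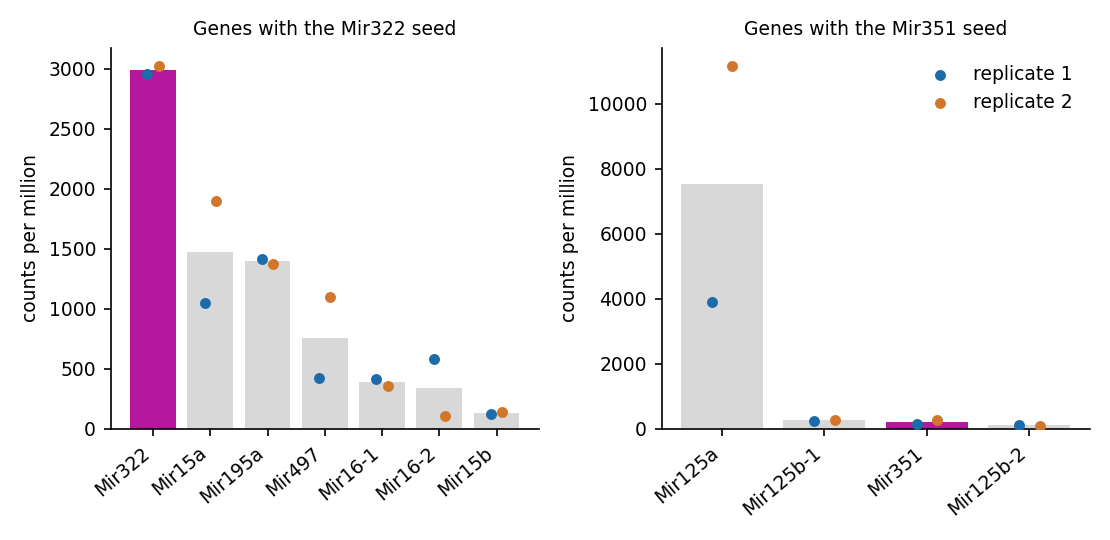
CPM of the genes with reads that carry the seed of Mir322 (left) or Mir351 (right); bars are means of both libraries, points are replicate 1 (blue) and replicate 2 (orange), and the cluster member is magenta. By uniquely counted reads, which understate the Mir16 and Mir125b genes, Mir322 is the highest gene of its seed at 2993 CPM, whereas Mir351 at 219 CPM is far below Mir125a at 7541 CPM.

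Mir351 was a minor source of its seed. The 6 genes with the seed held 3838 counts in replicate 1 and 25744 in replicate 2, of which Mir351 made up 3.47% (2.91 to 4.09) and 2.40% (2.21 to 2.59). Mir125a, at 3916 and 11166.5 CPM, led this group and was 2.85-fold higher in replicate 2 (2.75 to 2.96). Mir125b-1 and Mir125b-2, which share miR-125b-5p and are therefore lower bounds, stood at 260 ± 33.7 and 111 ± 26.6 CPM. The share of Mir351 is an upper bound for the same reason. The seeds of miR-503-5p, miR-450a-5p and miR-450b-5p were held by no gene outside the cluster.

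On chromosome X, reads were seen in each library for 40 of 142 miRNA genes, and the 142 together held 2.19% ± 0.0895 of gene counts (SD, n = 2). Ranked by uniquely counted reads, Mir322 was the fourth most abundant of them, after Mirlet7f-2 (7582 ± 261 CPM), Mir98 (3698 ± 259 CPM) and Mir361 (3061 ± 1210 CPM). Mir361 and Mir322 do not differ beyond their spread, as Mir361 read 3917 CPM in replicate 1 and 2205 CPM in replicate 2. Of the 30 tested genes of this chromosome 7 were called, beside 33.8% of all tested genes, and none of them was a member of the cluster with library totals, TMM or DESeq2 size factors.

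Neighbours on the same strand under 10000 bases apart were then grouped by position. By summed share of uniquely counted reads the cluster ranked second on the chromosome, after the pair Mirlet7f-2 and Mir98 at 1.16% and 1.09%. The pair Mir221 and Mir222, which restrain myoblast differentiation, followed at 0.0731% and 0.103%. Unequal members were seen there too: Mir221 held 90.2% and 83.1% of its pair's counts, beside 92.7% and 88.7% for Mir322 in the cluster.

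Of 29 other genes described in muscle cell differentiation, 26 were tested, of which 7 were called higher in replicate 2, 2 higher in replicate 1 and 17 were not called. Over all 305 tested genes 33.8% were called, and these calls split into 82 toward replicate 2 and 21 toward replicate 1. The split of the list was 3 and 4 with TMM, beside 66 and 32 over all genes, and 2 and 5 with DESeq2 size factors, beside 58 and 39. Their median log2 ratio was 0.36, close to that of all tested genes. Mir378a (152675 ± 40587 CPM), Mir206 (71810 ± 44437 CPM), Mir29a (14492 ± 423 CPM) and Mir27b (7201 ± 213 CPM) had the most uniquely counted reads. Genes with a second copy, such as the Mir1a and Mir133a genes, have levels known as minima and could rank higher. With library totals the 2 genes called higher in replicate 1 were Mir26a-1 and Mir26a-2. Mir24-2 and Mir29b-1 were among those called higher in replicate 2. These calls too rest on uniquely counted reads alone. Mir206, a miRNA of skeletal muscle, was 2.56-fold higher in replicate 2 (2.53 to 2.59) and was called, except with DESeq2 size factors (log2 ratio 0.94). By uniquely counted reads the mean level of Mir322 was close to that of Mir486, an intronic miRNA of the Ank1 gene (3476 ± 597 CPM). Mir3107 is annotated inside Mir486 on the opposite strand, and whether Mir486 lost reads to multimapping was not tested.

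The 5 genes nearest to Mir322 by the distance of log2(CPM + 1) over both libraries were Mir486 (0.368), Mir99b (0.403), Mir98 (0.446), Mir10a (0.529) and Mir28a (0.536). With 2 libraries this measure reflects little beyond a similar level by uniquely counted reads. The levels ran from 2502 ± 238 CPM for Mir99b to 3890 ± 32.9 CPM for Mir28a. Like Mir322, Mir28a was nearly even between the libraries with library totals, at a ratio of 0.988 (0.949 to 1.03). Its log2 ratio was -0.30 with TMM and -0.43 with DESeq2 size factors. No antisense read was counted at any of the 7 members, and the unstranded counts equalled the sense counts for all 7 in both libraries.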

How the data were processed

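MicroRNA-seq was run on 2 gastrocnemius libraries of 1 group. The authors deposited raw read counts per miRNA gene, which refer to mm10 and GENCODE M21 per the deposited README; which aligner and counter were used is not given in the sources used here. The 3 count columns have no header and from their values hold unstranded, sense and antisense counts; the sense column was used, and 4 tallies stayed out of the totals. Symbols and positions came from GENCODE M21 and mature sequences from RefSeq.

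CPM, ratios and exact intervals (95%) were computed in Python 3.11.15 with SciPy 1.17.1. Intervals and floors cover counting error alone, as PCR copies of a molecule were not told apart. The exact conditional binomial test was two-sided, adjusted over all genes whose counts averaged 10 or more, and was tested on simulated data. Scaling used edgeR 4.0.16 and DESeq2 1.42.0 in R 4.3.3. Alternatives were the unstranded column, other filters, no ratio threshold, the total without its top gene, and each library left out.

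The members, lists and rule for naming genes (the members, the 5 nearest genes, genes that share a seed, and up to 4 of each other list by mean CPM) were chosen with earlier results of these data known.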

Additional observations from a re-analysis of the deposited data

How the results depend on the processing

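The call of 0 members was the same with every scaling, column and filter tried. With library totals and no ratio threshold 1 member, Mir351, was called, as were 67.9% of tested genes. With TMM and with DESeq2 size factors both Mir322 and Mir351 had an adjusted p under 0.05 by the exact test. Mir322 was then lower in replicate 2 and Mir351 higher. The cluster's share of gene counts was 0.430% in the unstranded column and 0.390% in totals without the top gene, both of which shrink the denominator, and ranged from 0.319% to 0.341% with either library left out. The ratio of the summed counts was 0.877 with TMM, 0.799 with DESeq2 size factors, 1.001 in the unstranded column and 0.997 without the top gene; these 4 ratios were added after seeing the data. The log2 ratio of Mir322 turned to -0.061 in the unstranded column, -0.067 without the top gene, -0.25 under TMM and -0.39 under DESeq2. DESeq2 also turned the value of Mir503 to -0.10 and Mir450b to -0.032. Requiring an average of 100 counts left 2 members, Mir322 and Mir351, to test. It lowered the called genes of chromosome X from 7 to 3, with fewer genes tested, and the unstranded column, where Mir497 was not tested, and DESeq2 size factors each lowered those of the Mir15 and Mir16 list from 2 to 1. The share of its seed held by Mir322 was 44.5% in the unstranded column, an alternative also added after seeing the data. Without a filter 17.3% of genes were called, as the added genes averaged under 10 counts. No paired analysis was possible because there is 1 group, and with a library left out no ratio can be formed. Depth limits Mir503, Mir542 and the Mir450 genes, which had 3 to 88 counts a library.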
